A study of Mus musculus with 16 samples.

Results

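The Toll-like receptors are a family of pattern recognition receptors, and 10 of its mouse genes (Tlr1, Tlr2, Tlr3, Tlr4, Tlr5, Tlr6, Tlr7, Tlr8, Tlr9 and Tlr13) were taken by name from a table of 50600 genes. All 10 passed the filter on low counts and were tested among 16345 genes. Tlr11 and Tlr12 are described apart from them. Bulk RNA sequencing covered 16 libraries of sorted cells, 4 in each of 4 groups, all from male mice 13 to 14 weeks old. Brain CD11c cells were CD11c-eYFP+ cells of the ischemic hemisphere of Tg(Itgax-Venus)1Mnz mice, whose yellow reporter is driven by the promoter of Itgax, the CD11c gene. Spleen CD11c cells were CD11c-eYFP+ cells of the spleen of the same line, and the labels give no disease state for their donors. Ischemic microglia and control microglia were CX3CR1+ cells of CX3CR1CreERT2:Rosa26-tdT mice, in which inducible Cre made under Cx3cr1 control switches on tdTomato. They came from the ischemic hemisphere and from control brain. The time between ischemia and sorting is not given in the sources used here. Microglia and CD11c cells came from different lines, so line and population cannot be told apart.

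Toll-like receptors bind molecules of microbes and of damaged cells and signal through adaptor proteins to NF-kB and to interferon regulatory factors. Tlr1, Tlr2, Tlr4, Tlr5 and Tlr6 act mainly at the cell surface and bind lipoproteins, lipopolysaccharide and flagellin. Tlr3, Tlr7, Tlr8, Tlr9 and Tlr13 act in endosomes and sense nucleic acids, and they need the chaperone Unc93b1 to get there. In brain, microglia are the cells best known for carrying the family.

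Totals of counted reads ran from 31.57 to 48.25 (units of 1e+06) per library. Levels are CPM, counts per 1e+06 counts, after TMM scaling of the libraries, and n is 4 libraries in every group. Tests are edgeR's quasi-likelihood test over all 16345 genes, two-sided, with Benjamini-Hochberg adjusted p called under 0.05. Libraries are not tied to animals in the labels, and the p-values therefore measure the spread among libraries only, which may be technical. The titles of brain CD11c replicates 3 and 4 follow another pattern than those of replicates 1 and 2. Replicates 1 and 2 correlated at 0.986 in log2 CPM across genes, replicates 3 and 4 at 0.958, and the pairs across at 0.952 to 0.963, so by this measure replicates 3 and 4 were no more alike than they were to the others. By the chi-square statistic of the counts per degree of freedom they were more alike. It was 32.6 for replicates 1 and 2, 77.6 for replicates 3 and 4, and 172 to 240 for the pairs across. Lists of cell type markers were summed in the labelled populations, and Itgax was not in these lists. A list of 8 microglia genes summed to 7744 to 8929 CPM in brain CD11c cells, 18290 to 25700 in ischemic microglia, 25810 to 31030 in control microglia and 197 to 280.5 in spleen CD11c cells. Tmem119, a microglia gene, averaged 521 CPM in brain CD11c cells and 1551 in ischemic microglia. Spleen CD11c cells carried a B cell list at 2961 to 3691 CPM, where brain CD11c cells had 12.3 to 19.5, and a neutrophil list at 209 to 889 CPM, where brain CD11c cells had 8.51 to 27.6. Brain CD11c cells carried a monocyte list at 1162 to 1581 CPM, and ischemic microglia at 41.8 to 59.6. A type 1 dendritic cell list summed to 456 to 1019 CPM in brain and 813.5 to 1182 in spleen CD11c cells. It summed to 331 to 434 in ischemic and 355 to 384 in control microglia. A type 2 dendritic cell list was lower in CD11c cells, at 1867 to 2107 CPM in brain and 1194 to 1729 in spleen. Ischemic microglia had 2694 to 3077 and control microglia 3416 to 3663.

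Between brain CD11c cells and ischemic microglia, Tlr8 was the member that was higher, and Tlr2, Tlr3, Tlr4, Tlr6, Tlr7 and Tlr9 were lower in brain CD11c cells. Tlr1, Tlr5 and Tlr13 did not pass the test. The median of the 10 log2 fold changes was -0.66, against 0 over all genes tested. In this comparison 38.8% of all genes were called, 19.7% higher and 19.1% lower, beside 7 members called, 1 higher and 6 lower. The libraries of both groups did not overlap for 6 of the 10 members and for 31.4% of all genes tested.

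Between ischemic and control microglia, Tlr1, Tlr2 and Tlr7 rose and Tlr4 and Tlr5 fell. Tlr3, Tlr6, Tlr8, Tlr9 and Tlr13 did not pass. The background was 35.7% of all genes called, 17.7% higher and 18% lower, beside 5 members called, 3 higher and 2 lower. The median member log2 fold change was 0.15, against -0.05 over all genes, and 5 of the 10 members had no overlap, close to the 43.3% of all genes without one. Markers of other cells were described beside this comparison, without a test. The border macrophage list, with 8 of 8 genes above 1 CPM on average in both groups, summed to 538 to 663 CPM in ischemic microglia and 550.1 to 1108 in control microglia, where replicate 1 had 550.1 and the others 1028 or more. These sums overlapped between the groups. The type 2 dendritic cell list summed to 2694 to 3077 CPM in ischemic and 3416 to 3663 in control microglia. Of that list, Cd209a averaged 2.04 CPM in ischemic microglia and 24.1 in control microglia. Esam went the other way, at 0.69 and 0.51 CPM. Without control replicate 1 the same 5 members were called. The part of these markers in the member levels was not tested.

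Between brain and spleen CD11c cells, Tlr2, Tlr3, Tlr7 and Tlr13 were higher and Tlr1, Tlr4 and Tlr9 were lower in brain CD11c cells. Tlr5, Tlr6 and Tlr8 did not pass. Here 64.2% of all genes were called, 31.2% higher and 33% lower, so 7 members called, 4 higher and 3 lower, stand close to the background. The median was 0.20, against -0.04 over all genes, and 5 of the 10 members had no overlap, near the 55.2% of all genes without one. The microglia list summed to 7744 to 8929 CPM in brain and 197 to 280.5 in spleen CD11c cells. Its part in the member differences between these groups, that of Tlr2 among them, was not tested. Brain replicate 1 and spleen replicate 4 both carry the number 11 in their titles and may come from 1 animal, which the labels do not say.

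**Figure D1:**
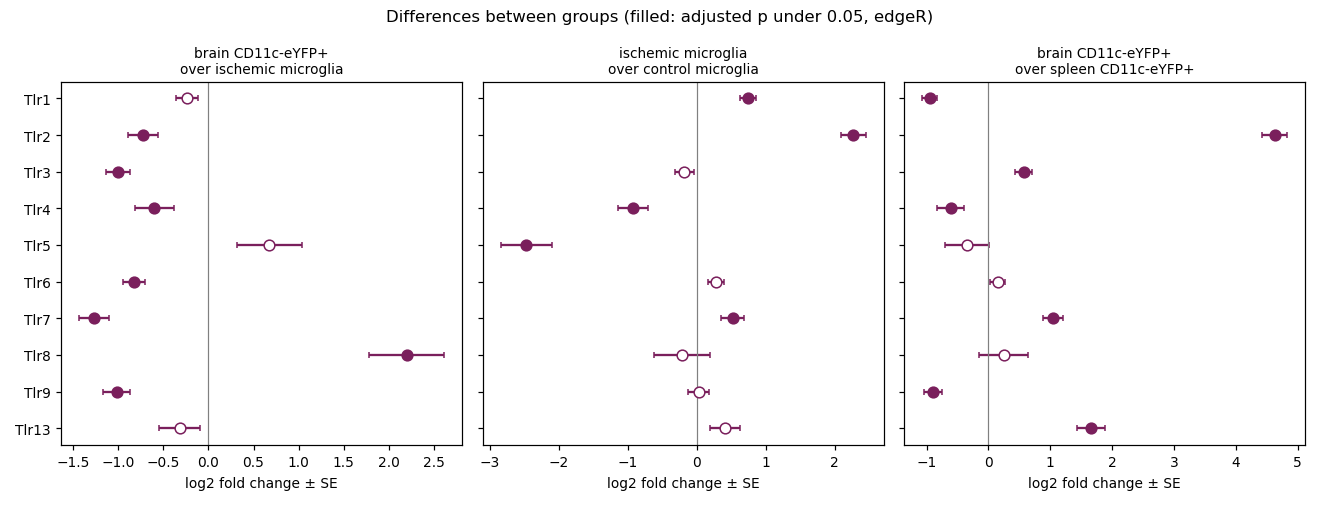
Log2 fold change with its standard error (x axis) of the 10 members (y axis) in the 3 comparisons, brain CD11c cells over ischemic microglia, ischemic over control microglia, and brain over spleen CD11c cells. Filled points have an adjusted p under 0.05. Tlr2 lies at 4.63 in brain over spleen CD11c cells and at 2.27 in ischemic over control microglia, and Tlr5 at -2.47 in ischemic over control microglia.

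Tlr2, the receptor for bacterial lipoproteins, pairs with Tlr1 or Tlr6, and it had the highest mean level per length in every group except spleen CD11c cells. In control microglia it stood below Tlr7 per length in replicates 2 and 3 (109.9 and 109.4 against 116.8 and 109.9 CPM per kilobase). Tlr2 (ENSMUSG00000027995, protein-coding) lies on GRCm38 chromosome 3, 83836272 to 83841767, on the minus strand. Its levels were 1372, 1410, 959.9 and 954 CPM in brain CD11c cells and 52.5, 41.1, 46.4 and 49.7 CPM in spleen CD11c cells. They were 1748, 2081, 1759 and 2166 CPM in ischemic microglia and 522, 331, 329.8 and 427 CPM in control microglia. The 4 groups did not overlap with one another, and ischemic microglia were highest, then brain CD11c cells, control microglia and spleen CD11c cells. Each step of that order passed the test, with adjusted p of 0.003 between brain CD11c cells and ischemic microglia, 1.24e-06 between brain CD11c cells and control microglia, and 2.59e-10 between spleen CD11c cells and control microglia. Tlr2 rose in ischemic over control microglia by a log2 fold change of 2.27 ± 0.178 (SE), or 4.81-fold, with an edgeR adjusted p of 2.32e-07. It was higher in brain than in spleen CD11c cells by 4.63 ± 0.198, or 24.8-fold, with an adjusted p of 9.2e-12.

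The promoters of the genes that moved most, Tlr2 and Tlr5 between microglia groups and Tlr8 in brain CD11c cells, are shown from RefSeq (GRCm38.p6), 250 bases before to 50 bases after the start of the gene, 5′ to 3′ on the strand of the gene. The start is that of RefSeq, which for Tlr5 and Tlr8 is the gene start in GENCODE and for Tlr2 lies 159 bases inside the gene as given above. Capitals mark matches on either strand to NF-kB, AP-1 (TGANTCA), PU.1 (GAGGAAG) or the interferon-stimulated response element (GAAANNGAAA).
Tlr2, chr3:83841559-83841858, minus strand: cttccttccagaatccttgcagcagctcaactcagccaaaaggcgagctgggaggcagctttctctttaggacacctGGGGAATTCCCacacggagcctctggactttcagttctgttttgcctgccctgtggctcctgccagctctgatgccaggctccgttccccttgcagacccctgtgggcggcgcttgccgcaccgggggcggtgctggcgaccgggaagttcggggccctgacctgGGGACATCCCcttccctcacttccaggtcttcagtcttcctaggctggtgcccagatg
Tlr5, chr1:182954538-182954837, plus strand: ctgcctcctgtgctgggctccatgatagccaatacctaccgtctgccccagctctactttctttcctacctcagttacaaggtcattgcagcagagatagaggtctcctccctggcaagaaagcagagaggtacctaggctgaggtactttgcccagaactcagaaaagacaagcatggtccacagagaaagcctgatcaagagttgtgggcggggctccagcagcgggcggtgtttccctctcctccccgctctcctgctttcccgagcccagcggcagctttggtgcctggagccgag
Tlr8, chrX:167264280-167264579, minus strand: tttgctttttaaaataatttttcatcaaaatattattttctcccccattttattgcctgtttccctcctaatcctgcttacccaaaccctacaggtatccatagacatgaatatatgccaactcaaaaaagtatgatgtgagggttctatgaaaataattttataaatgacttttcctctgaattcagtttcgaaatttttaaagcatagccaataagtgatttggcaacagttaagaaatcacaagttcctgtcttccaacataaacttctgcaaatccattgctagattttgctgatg

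The Tlr2 window held an NF-kB match at -173 and at -8 bases from the RefSeq start, and the Tlr5 and Tlr8 windows held none of the 4 motifs. The table gave 10 windows for 8 of the members, with no entry for Tlr4 and Tlr7. An NF-kB match was in 2 of the 10 windows, those of Tlr2 and Tlr3, and in 8.46% of 32851 windows of all genes. The interferon-stimulated response element was in 1 window, one of Tlr6, and in 3.44% of all. AP-1 was in 1 window, that of Tlr9, and in 7.81% of all, and PU.1 in 3 windows, of Tlr1, Tlr9 and Tlr13, and in 13.6% of all. Matches overlapped within the Tlr2 stretch of capitals at -173. These matches describe the letters only.

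Tlr1, a partner of Tlr2, was highest in spleen CD11c cells. Tlr1 (ENSMUSG00000044827, chromosome 5, 64924679 to 64933563, minus strand, protein-coding) stood at 109, 89.3, 77.7 and 68.2 CPM in brain CD11c cells, 179.6, 149.9, 176 and 159.8 in spleen CD11c cells, 99.9, 109.5, 93.5 and 103 in ischemic microglia, and 59.1, 67.8, 57.2 and 59.0 in control microglia. Spleen CD11c cells lay above every other library, and brain CD11c cells overlapped ischemic microglia. Brain over spleen CD11c cells differed by -0.95 ± 0.122 (adjusted p = 4.55e-06), and ischemic over control microglia by 0.74 ± 0.122 (adjusted p = 0.000246). The difference between brain CD11c cells and ischemic microglia, -0.24 ± 0.121, did not pass (adjusted p = 0.137), and it passed at -0.46 with brain replicates 3 and 4 only (adjusted p = 0.00313) and at -0.35 without brain replicate 1 (adjusted p = 0.0155). The part of the B cell and neutrophil markers of the spleen libraries in the levels of Tlr1, Tlr9 and the other members there was not tested.

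Tlr6, the other partner of Tlr2, sits next to Tlr1 (ENSMUSG00000051498, chromosome 5, 64952031 to 64960097, minus strand, protein-coding). It was the member with the smallest spread within brain CD11c cells, at 35.3, 30.2, 34.0 and 33.4 CPM, against 51.4, 69.7, 52.3 and 62.1 CPM in ischemic microglia. Brain CD11c cells lay below every ischemic microglia library, with a log2 fold change of -0.83 ± 0.123 and an adjusted p of 5.29e-05. Spleen CD11c cells ranged from 25.4 to 34.0 CPM and control microglia from 42.1 to 54.6. Brain over spleen CD11c cells (0.15 ± 0.122, adjusted p = 0.306) and ischemic over control microglia (0.28 ± 0.121, adjusted p = 0.0891) did not pass, though a model of both microglia groups alone gave 0.31 (adjusted p = 0.0458).

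Tlr1 and Tlr6 share long coding stretches, so reads could be counted to either, depending on how the authors counted reads that match both. Of the 50-base windows of the transcripts of Tlr1, 13.6% occurred in Tlr6, and 12.3% of those of Tlr6 occurred in Tlr1. The other 8 members had no window in another member, and Tlr1 and Tlr6 values are uncertain in that part. The longest identical coding stretch was 229 bases. A window of 120 coding bases that runs into it is shown for both genes, and capitals mark the base that differs.
Tlr1, coding bases 1408 to 1527, chromosome 5: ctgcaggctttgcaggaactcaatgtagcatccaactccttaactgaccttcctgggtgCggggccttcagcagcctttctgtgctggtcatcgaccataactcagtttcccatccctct
Tlr6, coding bases 1447 to 1566, chromosome 5: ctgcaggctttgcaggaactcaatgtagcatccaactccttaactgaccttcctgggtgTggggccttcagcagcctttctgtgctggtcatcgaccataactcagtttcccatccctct

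Tlr4, the lipopolysaccharide receptor, was highest in control microglia. Tlr4 (ENSMUSG00000039005, chromosome 4, 66827584 to 66930284, plus strand, protein-coding) stood at 58.8, 56.6, 67.3 and 56.5 CPM in ischemic microglia and 99.7, 125, 125 and 107 CPM in control microglia, with no overlap. It fell in ischemic over control microglia by 0.93 on the log2 scale, with an SE of 0.219 and an adjusted p of 0.00367. Brain CD11c cells had 46.8, 57.6, 32.0 and 21.6 CPM, and spleen CD11c cells 70.1, 51.1, 52.1 and 68.1. Brain CD11c cells overlapped both ischemic microglia and spleen CD11c cells through replicate 2 only, and replicates 1, 3 and 4 lay below all libraries of both. The differences were -0.60 ± 0.219 over ischemic microglia (adjusted p = 0.0401) and -0.61 ± 0.219 over spleen CD11c cells (adjusted p = 0.0222). With brain replicates 1 and 2 only they were -0.20 (adjusted p = 0.318) and -0.21 (adjusted p = 0.238), and with replicates 3 and 4 only -1.14 and -1.20. The call over ischemic microglia was lost without brain replicate 3 or 4 or any 1 ischemic library (adjusted p of 0.0614 to 0.111), and that over spleen CD11c cells without brain replicate 3 or spleen replicate 1 or 4 (0.0562 to 0.0666). Both calls were lost in a model of the groups compared alone (adjusted p of 0.0947 and 0.0845), and that over spleen CD11c cells with no filter on low counts (0.0584).

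Tlr5, the flagellin receptor, was the lowest member per length in brain CD11c cells, spleen CD11c cells and ischemic microglia. Tlr5 (ENSMUSG00000079164, chromosome 1, 182954788 to 182976044, plus strand, protein-coding) stood at 6.74, 5.79, 9.86 and 5.16 CPM in ischemic microglia and 36.5, 41.1, 41.0 and 34.4 in control microglia. The groups did not overlap, and Tlr5 fell by 2.47 on the log2 scale, with an SE of 0.372 and an adjusted p of 0.00014, the largest fall of any member between the microglia groups. Brain CD11c cells had 14.3, 17.0, 8.63 and 3.99 CPM and spleen CD11c cells 21.1, 10.7, 15.4 and 8.76. Brain CD11c cells overlapped both, and neither difference passed (adjusted p of 0.155 and 0.406). With brain replicates 1 and 2 only Tlr5 was higher than in ischemic microglia by 1.18 (adjusted p = 0.00592), as it was without replicate 4, by 0.95 (adjusted p = 0.0184). With replicates 3 and 4 only it was lower than in spleen CD11c cells, at -1.17 (adjusted p = 0.0139).

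Tlr7, which senses single-stranded RNA, had the highest mean level per length of the endosomal members in both microglia groups. Tlr7 (ENSMUSG00000044583, chromosome X, 167304929 to 167330558, minus strand, protein-coding) stood at 282, 331, 276 and 218 CPM in brain CD11c cells, 158, 117, 137 and 124 in spleen CD11c cells, 509.8, 790.3, 569 and 796 in ischemic microglia, and 526, 477, 448 and 412 in control microglia. Brain CD11c cells lay below all microglia libraries and above all spleen libraries. Brain CD11c cells were lower than ischemic microglia by -1.27 ± 0.162 (adjusted p = 1.13e-05) and higher than spleen CD11c cells by 1.04 ± 0.162 (adjusted p = 3.17e-05). Ischemic over control microglia was 0.52 ± 0.160 (adjusted p = 0.0191), with 1 ischemic library inside the control range. That call was lost without control replicate 3 or 4 and without ischemic replicate 2 or 4, at adjusted p of 0.0558 to 0.0824.

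Tlr8, the X-linked neighbour of Tlr7, was the member with the widest spread, 5.02-fold between brain CD11c libraries. Tlr8 (ENSMUSG00000040522, chromosome X, 167242696 to 167264329, minus strand, protein-coding) stood at 55.0, 77.5, 24.7 and 15.4 CPM in brain CD11c cells and 8.02, 8.37, 10.5 and 10.8 in ischemic microglia. Every brain CD11c library lay above every ischemic microglia library, and the difference was 2.20 ± 0.415 (adjusted p = 0.0006). With replicates 1 and 2 only it was 2.82 and with replicates 3 and 4 only 1.11 (adjusted p = 0.0114). Control microglia had 5.35 to 14.2 CPM. The part of the monocyte markers of brain CD11c cells in this difference was not tested. Spleen CD11c cells had 43.5, 30.3, 30.5 and 41.5, inside the brain range, and brain over spleen CD11c cells was 0.24 ± 0.394 (adjusted p = 0.604). With replicates 1 and 2 only the difference was 0.86 (adjusted p = 0.0224), and with replicates 3 and 4 only -0.89 (adjusted p = 0.0298), so it changed sign.

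Tlr13, which senses bacterial ribosomal RNA in mice, had the second highest mean level per length in brain CD11c cells, above Tlr7 in replicates 1 and 2 and below it in replicates 3 and 4. Tlr13 (ENSMUSG00000033777, chromosome X, 106143204 to 106160493, plus strand, protein-coding) stood at 424, 489, 248 and 216 CPM in brain CD11c cells, 142, 84.3, 113 and 97.9 in spleen CD11c cells, 378, 501, 374 and 465 in ischemic microglia, and 349, 347, 297 and 304 in control microglia. Brain CD11c cells lay above all spleen libraries, by 1.66 ± 0.229 (adjusted p = 1.01e-05). Over ischemic microglia they differed by -0.32 ± 0.223 (adjusted p = 0.281), at 0.09 with replicates 1 and 2 only and at -0.87 with replicates 3 and 4 only (adjusted p = 0.00142). Ischemic libraries lay above all control libraries, yet the difference of 0.41 ± 0.223 did not pass in the model of all 16 libraries (adjusted p = 0.171). In a model of those 2 groups alone it was 0.44 (adjusted p = 0.00741).

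Tlr3, which senses double-stranded RNA, was lower in both CD11c groups than in either microglia group. Tlr3 (ENSMUSG00000031639, chromosome 8, 45395665 to 45411080, minus strand, protein-coding) stood at 44.8, 43.1, 54.0 and 61.9 CPM in brain CD11c cells and 95.2, 91.2, 109 and 112 in ischemic microglia, with no overlap. The difference was -0.9985 ± 0.133 (adjusted p = 1.75e-05). Spleen CD11c cells had 28.2 to 43.2 CPM, and the highest of them lay just inside the brain range, with brain over spleen at 0.57 ± 0.133 (adjusted p = 0.00138). Control microglia had 112 to 118 CPM, and ischemic over control microglia did not pass (-0.18 ± 0.132, adjusted p = 0.303). The antisense gene Gm45542 overlaps 381 exon bases of Tlr3 and had 0 to 7 counts in any library.

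Tlr9, the receptor for unmethylated CpG DNA, was lowest in brain CD11c cells. Tlr9 (ENSMUSG00000045322, chromosome 9, 106222598 to 106226883, plus strand, protein-coding) stood at 61.8, 76.2, 78.1 and 41.7 CPM in brain CD11c cells, below every library of the other groups, which ran from 106 to 130.1 in spleen CD11c cells, 119 to 139.6 in ischemic microglia and 119 to 144 in control microglia. The differences were -1.02 ± 0.151 over ischemic microglia (adjusted p = 5.53e-05) and -0.90 ± 0.151 over spleen CD11c cells (adjusted p = 7.45e-05). The other groups overlapped, and none of the pairs among them passed.

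**Figure D2:**
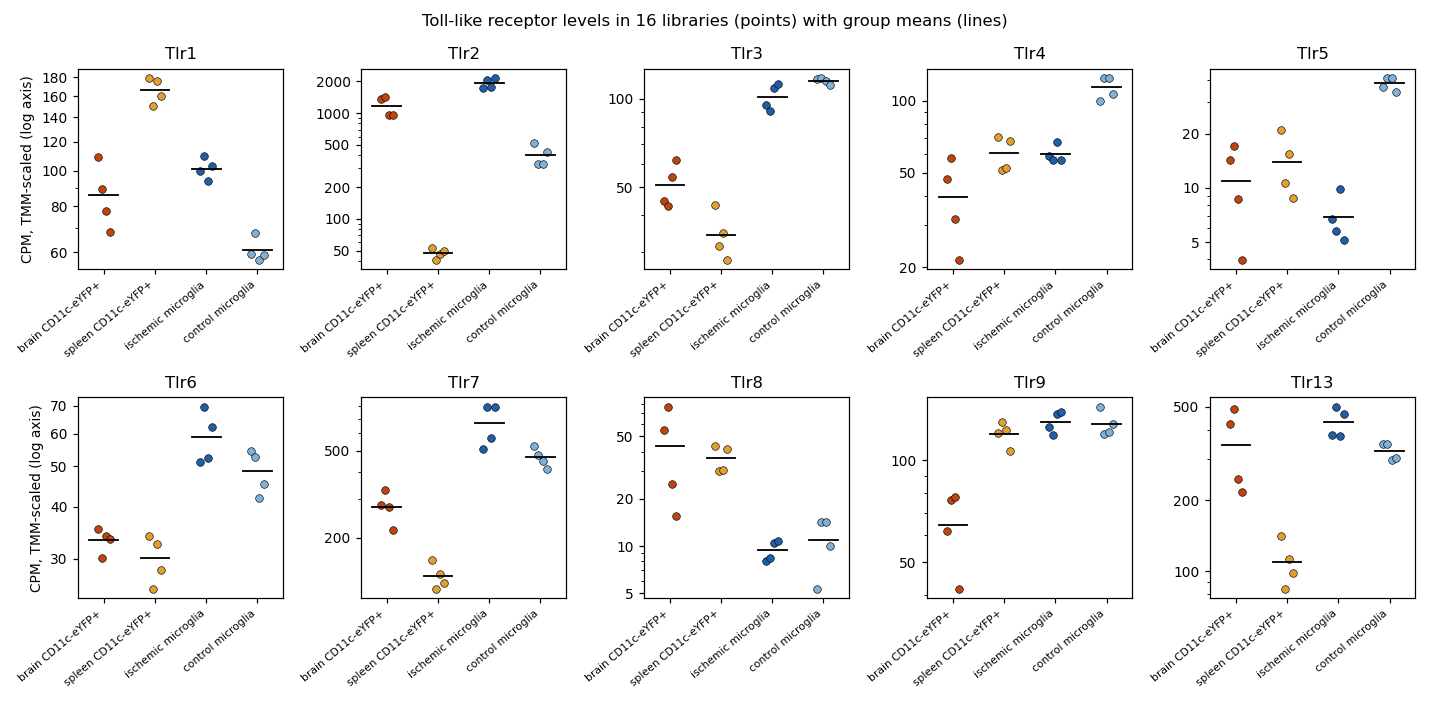
Levels of the 10 members as TMM-scaled CPM (y axis, log scale) in the 4 libraries (points) of brain CD11c cells, spleen CD11c cells, ischemic microglia and control microglia (x axis), with group means as lines. Tlr2 spans 41.1 to 2166 CPM over all libraries, and Tlr8 in brain CD11c cells runs from 15.4 to 77.5 CPM.

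Per length of the exons (CPM per kilobase), the make-up of the family differed between groups. Tlr2 gave 60.9% to 65.6% of the summed level in brain CD11c cells, 7.71% to 8.82% in spleen CD11c cells, 61.8% to 64.1% in ischemic microglia and 25.3% to 34.2% in control microglia. The endosomal members Tlr3, Tlr7, Tlr8, Tlr9 and Tlr13 gave 27.3% to 32.3% in brain CD11c cells, 54.0% to 56.6% in spleen CD11c cells, 29.8% to 32.6% in ischemic microglia and 54.0% to 59.6% in control microglia. Brain CD11c cells and ischemic microglia overlapped in both shares and lay apart from the other groups. The shares are parts of the same sum, so a larger Tlr2 share leaves less for the endosomal members. A lower share is therefore not a lower level. Per length, Tlr7, Tlr9 and Tlr13 had higher means in ischemic than in control microglia, and Tlr3 and Tlr8 lower ones. Of these differences only that of Tlr7 passed the test. In spleen CD11c cells Tlr1 was first per length at 49.7 ± 4.16 CPM per kilobase (SD), then Tlr9 at 34.5 and Tlr7 at 32.9. The summed level was 622 ± 140 CPM per kilobase in brain CD11c cells, 197 ± 20.4 in spleen CD11c cells, 1024 ± 124 in ischemic microglia and 445 ± 42.7 in control microglia (SD, n = 4 each).

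**Figure D3:**
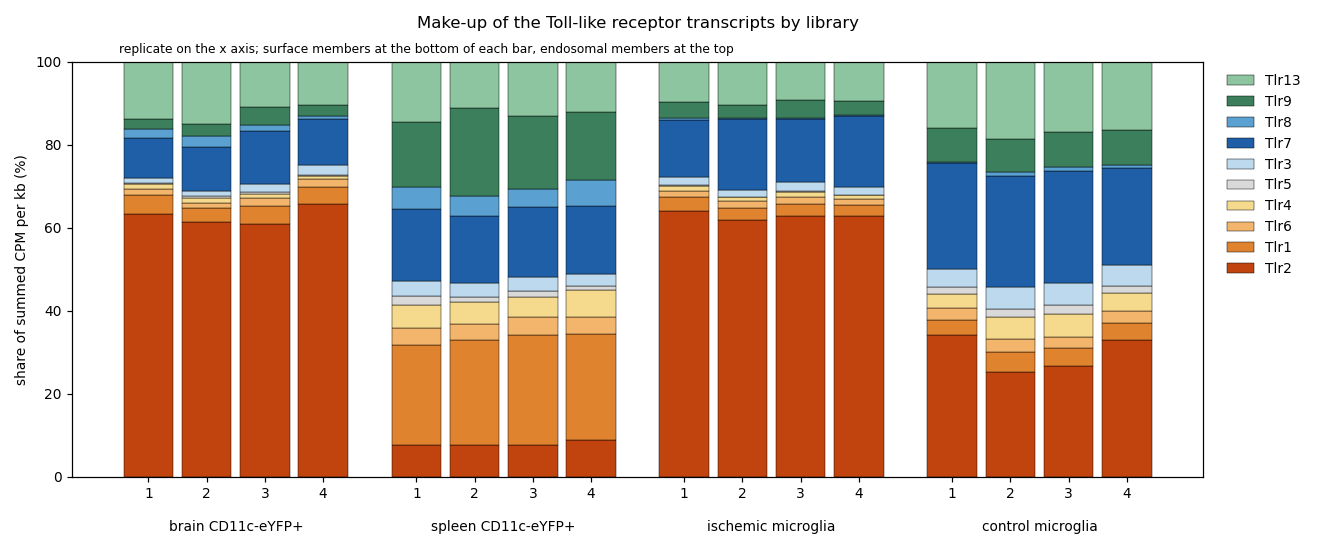
Share of each member in the summed CPM per kilobase (y axis, percent) of the 16 libraries (x axis, replicates 1 to 4 of each group), with surface members at the bottom of each bar. Tlr2 fills 60.9% to 65.6% of the bars of brain CD11c cells and 7.71% to 8.82% of those of spleen CD11c cells.

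Of the 10 members, Tlr1, Tlr2, Tlr4, Tlr5, Tlr7, Tlr8 and Tlr13 had higher levels in both brain CD11c replicates 1 and 2 than in replicates 3 and 4. Tlr3 split the other way, at 44.8 and 43.1 CPM in replicates 1 and 2 against 54.0 and 61.9 in replicates 3 and 4. Tlr6 and Tlr9 did not split by these pairs. For Tlr7 the nearest libraries, replicates 1 and 3, stood at 282 and 276 CPM. The share of all genes that split in either direction was not counted, so the split cannot be read as particular to the members. A list of 8 border macrophage genes summed to 835.6 and 747 CPM in replicates 1 and 2, against 284 and 276 CPM in replicates 3 and 4, and a type 1 dendritic cell list to 456 and 661 against 1019 and 817. The microglia list summed to 8929 and 8778 against 7744 and 7922 CPM. Their part in the member levels was not tested.

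**Figure D4:**
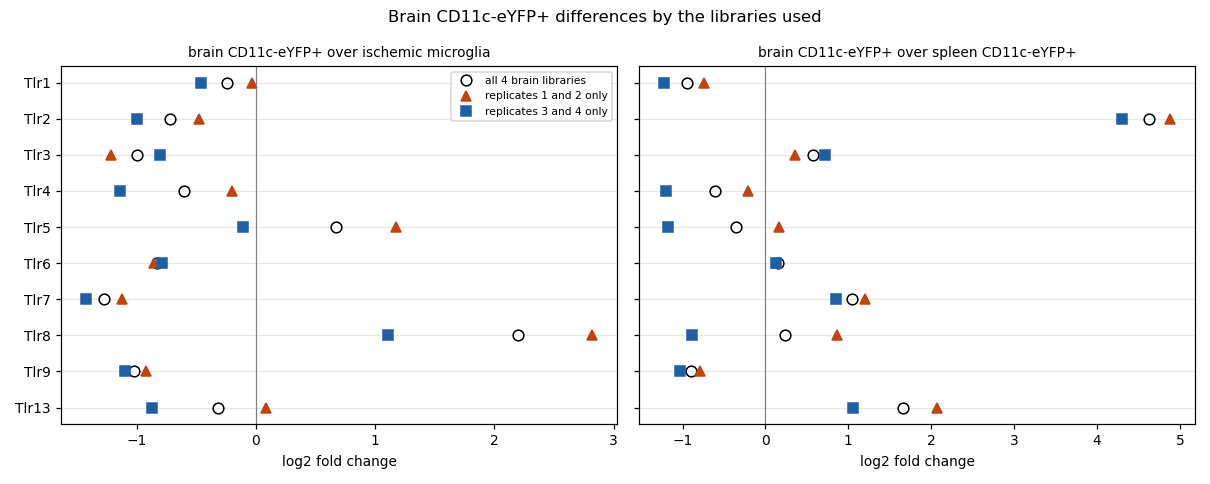
Log2 fold change (x axis) of each member (y axis) in brain CD11c cells over ischemic microglia and over spleen CD11c cells, with all 4 brain libraries, with replicates 1 and 2 only, and with replicates 3 and 4 only. Tlr8 over spleen CD11c cells lies at 0.86 with replicates 1 and 2 and at -0.89 with replicates 3 and 4.

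The adaptor genes are the next step of the pathway. Of 6 adaptor genes, 0 were higher and 2 lower in brain CD11c cells than in ischemic microglia, 3 rose and 1 fell in ischemic over control microglia, and 4 were higher and 0 lower in brain than in spleen CD11c cells. Medians of log2 fold change were -0.13, 0.32 and 0.65, against 0, -0.05 and -0.04 over all genes. The counts of this list and of the next ones are to be read against the shares of all genes called higher and lower, 19.7% and 19.1%, 17.7% and 18%, and 31.2% and 33% in the same order of comparisons. Myd88, the adaptor of most members, averaged 168 ± 18.4 CPM in ischemic microglia and 119 ± 8.47 in control microglia (SD), a rise of 0.50 ± 0.121 (adjusted p = 0.00406). Ticam1, the adaptor of Tlr3 and Tlr4, rose to 109 ± 10.7 CPM in ischemic microglia, against 58.3 ± 11.3 in control microglia. It was lower in brain CD11c cells (69.3 ± 7.54 CPM) than in ischemic microglia, by -0.65 ± 0.125 (adjusted p = 0.000583). Tirap, which links Tlr2 and Tlr4 to Myd88, fell by 0.51 between the microglia groups (adjusted p = 0.0304).

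Of 14 genes of coreceptors and trafficking, 0 were higher and 6 lower in brain CD11c cells than in ischemic microglia, 5 rose and 1 fell in ischemic microglia, and 7 were higher and 0 lower in brain than in spleen CD11c cells. The medians were -0.28, 0.25 and 0.34. Cd14, a coreceptor of Tlr2 and Tlr4, averaged 1317 ± 407 CPM in brain CD11c cells and 46.2 ± 14.0 CPM in spleen CD11c cells, a difference of 4.83 ± 0.278 (adjusted p = 3.47e-10). In ischemic microglia it averaged 1492 ± 285 CPM, against 662 ± 126 in control microglia, a rise of 1.17 (adjusted p = 0.0013). Unc93b1, the chaperone of the endosomal members, was lower in brain CD11c cells (1014 ± 92.2 CPM) than in ischemic microglia (1521 ± 92.8 CPM), by -0.59 ± 0.107 (adjusted p = 0.000362). Its level did not pass the test between the microglia groups (-0.18, adjusted p = 0.204). Ly86, a partner of Cd180, rose in ischemic microglia by 0.91, and Cnpy3, a chaperone of several members, fell by 0.48 (adjusted p = 0.00539).

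Of 20 genes of kinases, ligases and interferon regulatory factors, 6 were higher and 2 lower in brain CD11c cells than in ischemic microglia, 6 rose and 2 fell in ischemic microglia, and 12 were higher and 3 lower in brain than in spleen CD11c cells. The medians were 0.07, 0.02 and 0.31. Ikbke and Irf7 rose most in ischemic microglia, by 3.65 ± 0.309 (adjusted p = 6.66e-07) and 3.04 ± 0.246 (adjusted p = 3.65e-07). Irf7 averaged 216 ± 24.0 CPM in ischemic microglia and 26.3 ± 8.86 in control microglia. Irf3, by contrast, fell by 0.58 (adjusted p = 0.000261).

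Of 14 negative regulators, 3 were higher and 6 lower in brain CD11c cells than in ischemic microglia, 5 rose and 3 fell in ischemic microglia, and 8 were higher and 2 lower in brain than in spleen CD11c cells. The medians were -0.09, 0.12 and 0.69. Tnfaip3, which switches off NF-kB signalling, averaged 656 ± 145 CPM in brain CD11c cells, against 1716 ± 302 in ischemic microglia and 102 ± 9.85 in spleen CD11c cells. The differences were -1.39 (adjusted p = 4.53e-05) and 2.68 (adjusted p = 1.54e-08). Tnfaip3 rose by 0.59 in ischemic over control microglia (adjusted p = 0.0304). Sigirr had the largest change of the list in brain CD11c cells over ischemic microglia, and it was higher, by 2.70 (adjusted p = 7.57e-07). Siglech is in this list and also in the microglia and plasmacytoid dendritic cell lists.

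Of 12 cytosolic sensors of nucleic acids and peptidoglycan, 1 was higher and 9 lower in brain CD11c cells than in ischemic microglia, 7 rose and 1 fell in ischemic microglia, and 8 were higher and 1 lower in brain than in spleen CD11c cells. The medians were -0.47, 1.05 and 0.78, beside the all-gene medians of 0, -0.05 and -0.04. Zbp1, Ifi204 and Dhx58 rose most, by 3.38, 3.22 and 1.95. Nod2, the sensor of muramyl dipeptide, was the 1 higher gene in brain CD11c cells over ischemic microglia, at 63.6 against 18.3 CPM (1.80 ± 0.196, adjusted p = 2.03e-06).

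Tlr11 and Tlr12, mouse receptors for profilin, are also in the list of type 1 dendritic cell markers. Tlr11 averaged 3.48 ± 1.16 CPM in brain CD11c cells and 49.8 ± 17.7 in spleen CD11c cells, a difference of -3.84 ± 0.320 (adjusted p = 3.18e-08). Tlr12 averaged 36.2 ± 14.2 CPM in ischemic microglia and 69.2 ± 10.6 in control microglia, and it fell by 0.94 (adjusted p = 0.0312).

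The genes most like each member were found by Pearson correlation of log2 CPM over the 16 libraries among 7123 protein-coding genes with a mean of at least 20 CPM (7124 for Tlr5). These r values include the differences between the 4 groups, and the part within groups was not separated. Tlr2 had the highest, with Ctla2b at 0.995 and Pwwp2b and Npc2 at 0.993. Tlr3 was nearest to Scmh1 at 0.989, P3h2 at 0.987 and Marcks at 0.985. Tlr7 was nearest to Kcnk6 at 0.983, Fam219a at 0.98 and Ndst2 at 0.976. Tlr13 was nearest to Npc1 at 0.981, Atp6ap1 at 0.98 and Rusc2 at 0.979. Tlr1 was nearest to Pilra at 0.965, Rcc1 at 0.952 and Pgap1 at 0.94, and Tlr8 to Slc25a51 at 0.964, Agtpbp1 at 0.957 and Tubgcp4 at 0.949. Tlr4 was nearest to Slc35a1 at 0.957, Pskh1 at 0.947 and Alg12 at 0.946, and Tlr6 to Sun2 at 0.942, Zkscan17 at 0.93 and Mr1 at 0.927. Tlr9 was nearest to Kdm1b at 0.936, Otud7b at 0.923 and C2cd3 at 0.921, and Tlr5 to Hsf1 at 0.917, Vps72 at 0.912 and Trim65 at 0.898.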

How the data were processed

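Counts of reads per gene are whole numbers as deposited by the authors. Reads were checked with FastQC 0.11.5 and aligned with STAR 2.5.3a to GRCm38, per the submitters' processing notes. The counting program, its strand setting and the annotation release are not given in the sources used. Libraries were stranded and made from polyadenylated RNA, per the labels, and total RNA input ranged between 2.4 and 147 ng. Depth per library was 31.57 to 48.25 (units of 1e+06 counts), 39.38 ± 4.286 on average (SD, n = 16).

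Genes were named and measured with the GENCODE mouse annotation on GRCm38. edgeR 4.0.16 under R 4.3.3 (TMM, filterByExpr, robust quasi-likelihood test, 1 model with a mean for each of 4 groups) tested all 16345 genes kept, two-sided, at an adjusted p of 0.05. Alternatives used RLE scaling, library totals, no filter, DESeq2 1.42.0, limma 3.58.1 (voom), the groups compared alone, libraries left out in turn, and brain CD11c replicates 1 and 2 or 3 and 4 only. The procedure was tested on simulated data. The members and gene lists were chosen with earlier results of these data known. Every member is named. A rule picked up to 3 genes per list with the largest called change in its main direction, and 1 in the other. Some of them are left out of the list paragraphs, among them Atf3, at 6.30 in brain over spleen CD11c cells. Further list genes are named with their values, so the genes named are not always those with the largest change. Like genes are the 3 most correlated. Motifs were searched in 300-base RefSeq windows.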

Additional observations from a re-analysis of the deposited data

How the results depend on the processing

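Of 96 counts of members under the alternatives, 92 stayed within 1.5 times of the reported count. The members higher in ischemic over control microglia were 5 (Tlr1, Tlr2, Tlr6, Tlr7 and Tlr13) in a model of those groups alone, against 3. That model called 3685 of 14186 genes higher, against 2889 of 16345. Those higher in brain CD11c cells over ischemic microglia were 2 (Tlr5 and Tlr8) without brain replicate 4 and with brain replicates 1 and 2 only, against 1. Genes called higher were 3280 of 16780 and 3626 of 17320 in these settings, against 3213 of 16345. Members lower in brain over spleen CD11c cells were 5 with brain replicates 3 and 4 only, against 3. Genes called lower were then 6054 of 17530, against 5390 of 16345. With 1 library left out, the counts ran from 1 to 2 higher and from 5 to 7 lower in brain CD11c cells over ischemic microglia, from 2 to 3 higher and 2 lower in ischemic over control microglia, and 4 higher and from 2 to 3 lower in brain over spleen CD11c cells. The cause was not tested.

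Of 460 log2 fold changes under the alternatives, 418 kept direction and call, 21 lost the call, 9 gained it and 12 changed sign. With library totals, Tlr9 was at -0.13 in ischemic over control microglia, and Tlr6 at -0.12 and Tlr8 at -0.05 in brain over spleen CD11c cells. With 1 library left out, Tlr9 in ischemic over control microglia ran up to 0.07 and Tlr8 in brain over spleen CD11c cells up to 0.52. Without control replicate 2 or 3 or ischemic replicate 3, Tlr9 was at -0.02, and without ischemic replicate 4 at -0.03. Tlr8 in brain over spleen CD11c cells was at -0.23 without brain replicate 2 and at -0.89 with replicates 3 and 4 only. Tlr13 was at 0.09 over ischemic microglia and Tlr5 at 0.17 over spleen CD11c cells with replicates 1 and 2 only, and Tlr5 at -0.11 over ischemic microglia with replicates 3 and 4 only. Of these, only the Tlr8 value at -0.89 passed (adjusted p = 0.0298). With library totals the median log2 fold change of all genes was 0.10 in brain CD11c cells over ischemic microglia, -0.20 in ischemic over control microglia and -0.30 in brain over spleen CD11c cells, and genes called higher were 62.4%, 33.5% and 34.9% of those called, against 50.7%, 49.5% and 48.6%. Tlr4 over ischemic microglia (adjusted p = 0.0541), Tlr7 in ischemic over control microglia (0.0782) and Tlr3 over spleen CD11c cells (0.0938) then lost their call. Calls for Tlr4 in both brain comparisons were also lost when single libraries were left out and in models of the groups compared alone (0.0947 and 0.0845), and the one over spleen CD11c cells with no filter (0.0584).

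CPM not divided by length gave an endosomal share of 36.5% in brain CD11c cells, 57.7% in spleen CD11c cells, 38.1% in ischemic microglia and 61.2% in control microglia. With the longest transcript as length, 30 of 40 levels per kilobase moved by less than the spread between libraries. No paired analysis was possible because, in each of the 3 comparisons, the titles of the groups share fewer than 2 numbers. Spleen CD11c cells and ischemic microglia, of different mouse lines, share 3 numbers, but their deviations from the group means did not go together (r of -0.0497 to -0.0203). In those libraries, chosen after seeing the data, 3 members were higher and 5 lower in spleen CD11c cells with the number as a replicate block, and 2 and 5 without it, against 3 and 5 over all libraries. Over all libraries, 37.2% of all genes tested were called higher and 31.3% lower in this pair of groups. In both microglia groups Tlr5 and Tlr8 had the lowest mean CPM of the members. Of 40 groups of 4 libraries, none held a member value that Dixon's test set apart (95% critical value). The test looks for a lone extreme value. It is not made to find a split of a group into pairs, as described for brain CD11c cells.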
